A study of Mus musculus with 54 samples.

Results

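The 44 genes described here encode the enzymes that remove reactive oxygen species and those that join glutathione to reactive compounds. They were taken by symbol, as the rows of the mouse testis and ovary count tables that carry a listed name. All 44 were found among the 26264 rows of each table, and all 44 passed the filter on low counts in both tissues. They comprise 5 glutathione peroxidases, 3 superoxide dismutases, catalase, 6 peroxiredoxins, the thioredoxin system, the makers and recyclers of glutathione, 11 glutathione transferases, 2 epoxide hydrolases and the NRF2 regulators with their best known targets.

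Superoxide dismutases turn superoxide into hydrogen peroxide, which catalase, the glutathione peroxidases and the peroxiredoxins then break down. Glutathione peroxidases and glutathione transferases draw on the tripeptide glutathione, peroxiredoxins draw on thioredoxin, and both carriers are restored by reductases that use NADPH. Under oxidative or electrophilic stress KEAP1 releases the transcription factor NRF2 (gene Nfe2l2), which binds antioxidant response elements (AREs) in many of these genes. In the testis, sperm precursors are rich in the glutathione peroxidase GPX4 and the reductase TXNRD3, and steroid-making Leydig cells are rich in glutathione transferases. In the ovary, granulosa, luteal and theca cells make steroids, a process that generates reactive oxygen species.

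RNA of adult testis and ovary was sequenced in 54 libraries, 3 (A, B and C) in each of 9 groups per tissue. F1 mice drank, in utero through their dams from 8.5 days post-coitum and then until sampling at 10 weeks (males) or 8 weeks (females), water with 0.001% ethanol (control), dose 1 or dose 2. Dose 1 combined the anti-inflammatory ibuprofen (IBU) at 11.3 ng/L, its hydroxylated form 2hIBU at 90 ng/L, the anti-inflammatory diclofenac (DCF) at 22.5 ng/L and the synthetic oestrogen ethinylestradiol (EE2) at 2.25 ng/L, and dose 2 held 113, 225, 112 and 45 ng/L of the same compounds. F2 mice, labelled with no treatment, had control parents, a mother from dose 1 or dose 2, a father from dose 1 or dose 2, or both parents from dose 2, as read from cross codes that put the male first. The labels name no strain, genotype or separate F2 age, and no litter for any library. The p-values therefore speak only to the scatter among these libraries, which may be technical. In whole tissue, fewer cells of a type and less RNA per cell cannot be told apart.

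Libraries held from 31835494 to 46432282 counts in testis and from 35642474 to 101817720 counts in ovary. Tissue identity was plain: 10 spermatid markers summed to 10392 to 24217 CPM (counts scaled to library size, with TMM factors within each tissue) in testis libraries and to 1.06 to 4.22 CPM in ovary libraries, and 9 granulosa markers to 87.0 to 128 CPM in testis and 3418 to 6511 CPM in ovary. Some libraries stood apart. Epididymis markers summed to 5.21 and 4.16 CPM in testis libraries A and B of both parents dose 2, against at most 0.629 CPM in every other testis library. Ovary F1 control A held the highest level of 20 of the 44 genes among all 27 ovary libraries, a count not made over all genes. Oviduct markers reached 1498 and 765 CPM in ovary F1 dose 2 A and B, against 261 CPM in library C.

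The promoters of the genes on which the results turn are shown as the 250 bases before the start site, 5′ to 3′ on the gene's strand. They come from RefSeq on build GRCm38.p6, where 36 of the 44 genes matched, while the counts were made on mm39. Capitals mark the core letters of the ARE (TGACNNNGC, read on both strands). Mgst1 (chr6:138140277-138140526, plus strand) is shown because it was the F1 call, and Gstm5 (chr3:107895604-107895853, plus strand) because it was the most abundant of the genes in testis. Gclm (chr3:122245307-122245556, plus strand) is a classical NRF2 target with a match, whereas Gpx1 (chr9:108338830-108339079, plus strand) and Gstm1 (chr3:108017819-108018068, minus strand, at one of its listed starts) hold no match in these windows and fell in F2 testis, Gpx1 in 4 comparisons and Gstm1 furthest among the genes that passed.
Mgst1: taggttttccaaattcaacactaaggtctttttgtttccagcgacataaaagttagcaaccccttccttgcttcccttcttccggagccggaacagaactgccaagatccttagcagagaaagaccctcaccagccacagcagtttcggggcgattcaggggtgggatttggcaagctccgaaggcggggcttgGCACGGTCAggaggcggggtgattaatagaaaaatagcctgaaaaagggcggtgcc
Gstm5: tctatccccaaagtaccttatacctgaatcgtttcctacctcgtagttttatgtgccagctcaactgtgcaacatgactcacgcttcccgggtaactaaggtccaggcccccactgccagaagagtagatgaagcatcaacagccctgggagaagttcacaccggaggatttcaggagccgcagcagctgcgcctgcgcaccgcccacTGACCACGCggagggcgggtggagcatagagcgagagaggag
Gclm: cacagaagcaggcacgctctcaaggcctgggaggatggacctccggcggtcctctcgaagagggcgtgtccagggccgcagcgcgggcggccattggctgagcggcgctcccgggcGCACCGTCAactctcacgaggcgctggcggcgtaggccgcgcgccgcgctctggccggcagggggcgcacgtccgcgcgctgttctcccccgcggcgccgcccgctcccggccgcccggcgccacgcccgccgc
Gpx1: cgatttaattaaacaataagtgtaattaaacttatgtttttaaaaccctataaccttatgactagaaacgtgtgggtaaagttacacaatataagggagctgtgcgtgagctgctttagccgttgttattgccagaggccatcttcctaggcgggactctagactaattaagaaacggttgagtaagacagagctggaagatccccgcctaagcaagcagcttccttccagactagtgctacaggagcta
Gstm1: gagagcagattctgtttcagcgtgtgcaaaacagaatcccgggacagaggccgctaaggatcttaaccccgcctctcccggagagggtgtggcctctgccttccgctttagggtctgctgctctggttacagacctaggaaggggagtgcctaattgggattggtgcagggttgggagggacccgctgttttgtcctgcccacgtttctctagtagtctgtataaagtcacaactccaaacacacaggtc
The ARE core occurred in a window of 7 of the 36 genes (19.4%), namely Nfe2l2, Gstm5, Gclm, Prdx1, Mgst1, Txnrd1 and Sod1. It occurred in 11.5% of the 27025 genes with a window of this length. In Mgst1 it lies 56 to 48 bases before the start shown, on the minus strand, and the window of another listed Mgst1 start holds no match. Txnrd1 likewise has listed starts without a match. In Gstm5 it lies 42 to 34 bases before the start on the plus strand, and in Gclm 134 to 126 bases before it on the minus strand. The palindromic oestrogen response element, an SF-1 site (CAAGGTCA) and a CRE (TGACGTCA), searched on both strands, were in no window of the 36 genes. They occurred in 0.0666%, 1.51% and 1.77% of all genes. A match is a description of letters and not a measured site.

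The resting levels differed between the tissues, in a direction that depended on the gene. Per kilobase of transcript (CPM per kb), the testis of F1 controls was dominated by 2 of the 44 genes, the transferase Gstm5 at 1730 ± 158 (SD, n = 3) and Gpx4, which protects membranes and builds the sperm midpiece, at 1458 ± 103. The next were the cytosolic dismutase Sod1 at 277 ± 16.1, Gstm1 at 194 ± 15.4, Txnrd3 at 176 ± 5.60 and Gstm2 at 156 ± 2.90, so that Gstm1 and Txnrd3 lay within their spread of each other. At the other end stood the transsulfuration enzyme Cbs at 0.441, the epoxide hydrolase Ephx2 at 0.63 and the endoplasmic reticulum peroxidase Gpx7 at 0.758 CPM per kb. In F1 control ovary the order was led by Ephx2 at 889 ± 218, the secreted peroxidase Gpx3 at 876 ± 539, Sod1 at 525 ± 232 and Gstm2 at 440 ± 131 CPM per kb, whose ranges overlap. The lowest there was Cth, the enzyme that makes cysteine from cystathionine, at 2.43 CPM per kb.

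Testis and ovary of the same generation were compared in the unexposed groups with 1 fit over the 12 control libraries. In F1 controls 38 of the 44 genes passed the threshold (edgeR's quasi-likelihood test, Benjamini-Hochberg adjusted p under 0.05), 7 higher and 31 lower in testis, and in F2 control parents again 38, with 8 higher and 30 lower. The share is near that of all genes, of which 85.4% and 85.1% passed. The split was less even than among all genes, where 43.2% were higher and 42.2% lower in F1 controls and 43.2% and 41.9% in F2 control parents. The median difference was -1.04 on the log2 scale in F1 and -1.23 in F2, beside 0.00 and -0.01 over all genes. RLE size factors moved the median of all genes by 0.27 and 0.28 and left 8 higher and 28 lower in F1 and 8 higher and 27 lower in F2.

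The 7 genes higher in testis in both generations included the sperm-associated forms. Gstm5 stood at 1958 ± 197 CPM in testis and 29.6 ± 8.80 CPM in ovary of F1 controls (log2 difference 6.05 ± 0.24 SE, adjusted p = 1.35e-10), and at 1846 ± 66.7 and 27.3 ± 5.45 CPM in F2. Txnrd3, a reductase of the testis that also acts on glutathione, stood at 597 ± 16.4 and 14.3 ± 1.38 CPM in F1 (5.38 ± 0.13, adjusted p = 1.94e-12). The difference for Gpx4 was 2.73 in F1 and 3.02 in F2, with 48.4% of the 100-base stretches of its transcript also present in a Gpx4 pseudogene, so its counts are uncertain. The other 4 were Prdx4, a peroxiredoxin of the secretory pathway (1.20 in F1), the glutathione synthesis subunit Gclm (0.67 and 0.64), the mitochondrial dismutase Sod2 (0.58 and 0.61) and Prdx5 (0.55 and 0.66). With each library left out in turn, the Prdx5 call held in 1 of 6 fits in F1 and 5 of 6 in F2. Keap1 passed in F2 alone (0.25 with adjusted p = 0.0702 in F1, 0.29 with adjusted p = 0.0361 in F2).

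The ovary-rich genes spanned a wider range. Ephx2, which hydrolyses lipid epoxides, stood at 1.54 ± 0.173 CPM in testis and 1482 ± 361 CPM in ovary of F1 controls (log2 difference -9.91 ± 0.47) and at 2.35 ± 0.871 and 731 ± 376 CPM in F2 (-8.28 ± 0.44). Gpx3 stood at 8.06 ± 0.740 and 1144 ± 703 CPM in F1 (-7.15 ± 0.58) and at 14 ± 5.04 and 307 ± 69.5 CPM in F2 (-4.45 ± 0.51). Its ovary level varied widely even among controls, from 411 CPM in F1 control C to 1993 CPM in F1 control A on the scale of the ovary libraries. The sums of 8 corpus luteum markers in those 2 libraries were 8776 and 23748 CPM, and their part in the Gpx3 level was not tested. By the mean of both generations the next were Gpx7 (-5.56 in F1 and -5.12 in F2), Gpx8, another peroxidase of the endoplasmic reticulum (-3.98 and -3.75), the omega-class transferase Gsto1 (-4.05 and -3.38), Cbs (-3.22 and -3.55), Gstt1 (-2.73 and -3.27) and thioredoxin itself, Txn1 (-3.13 and -2.86). Prdx2 was next after these (-3.30 and -2.62). All 8 passed in both generations, with adjusted p from 6.515e-10 (Ephx2, F1) to 0.000298 (Gstt1, F1).

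**Figure D1:**
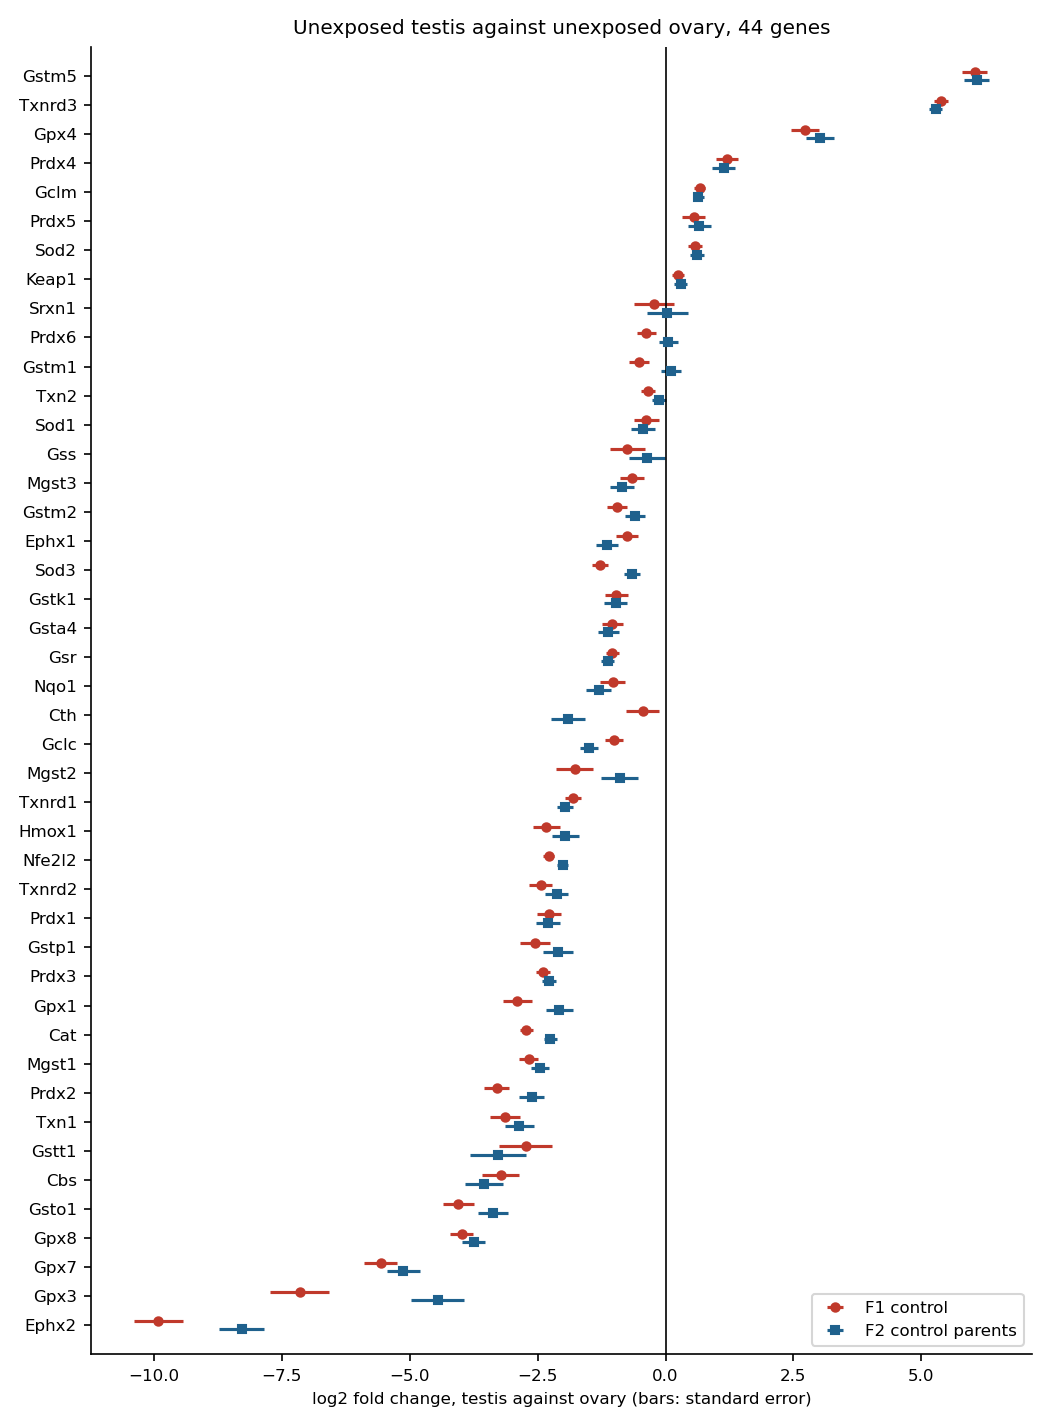
Log2 difference between unexposed testis and unexposed ovary (horizontal axis, bars are standard errors) for each of the 44 genes (vertical axis), with F1 controls as circles and F2 control parents as squares, 3 libraries per tissue and generation. Gstm5, Txnrd3 and Gpx4 lie far to the right and Ephx2, Gpx3 and Gpx7 far to the left, while most genes sit left of zero in both generations.

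In F1 testis, direct exposure was followed by a fall of 1 gene at dose 2, the membrane-bound transferase Mgst1 (Entrez 56615), which conjugates lipophilic compounds and reduces lipid peroxides. Its level was 33.4, 34.8 and 41.6 CPM in controls A, B and C, 39.8, 32.8 and 37.7 CPM at dose 1, and 25.5, 24.1 and 24.4 CPM at dose 2. Every dose 2 library lay below every control and every dose 1 library. The fall from control was 0.57 ± 0.10 on the log2 scale (value -0.57, adjusted p = 0.0353). It was 1 of 44 genes called, a share near that of all genes. Of the 18923 genes tested 2.21% were called, 1.64% in the lower direction. Leydig cell markers summed to 937 to 1178 CPM in these dose 2 libraries and 1233 to 1283 CPM in the controls, and 1 of the 10 passed as lower. Spermatid markers summed to 13136 to 15153 CPM at dose 2 and 16596 to 24217 CPM in controls, again without overlap and with 1 of 10 lower. The part of these cells in the value was not tested. The call was lost when any 1 of the 6 libraries was left out (adjusted p 0.0537 to 0.230, log2 -0.63 to -0.47), and DESeq2 called 6 of the 44 genes, all lower, including Mgst1, beside 11.7% of all genes.

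Around Mgst1 the other genes of F1 dose 2 testis lay mostly on the lower side, with 32 of 44 log2 values below 0 and a median of -0.16 beside 0.01 over all genes. The spermatid markers given above lay on the same side, 8 of 10 below 0 with a median of -0.36. At an unadjusted p under 0.05 stood 8 of the 44 genes, beside 23.6% of all genes. The cytosolic peroxiredoxin Prdx1 stood at 95.2, 93.1 and 121 CPM in controls and 62.7, 62.1 and 74.6 CPM at dose 2, and its mitochondrial relative Prdx3 at 20.9, 20.3 and 22.0 CPM against 14.4, 17.8 and 13.9 CPM. Neither passed the threshold. At dose 1, 0 of 44 genes passed with edgeR, beside 0.0317% of all genes, as with DESeq2 (0.738%), and 4 had an unadjusted p under 0.05 (8.55%). The smallest p belonged to Keap1 (log2 -0.26 ± 0.09, adjusted p = 0.462), Cbs (-0.79 ± 0.29, 0.497) and the glutathione reductase Gsr (-0.23 ± 0.10, 0.565). Dose 2 against dose 1 likewise gave 0 calls with edgeR beside 0.227% of all genes, 13 genes at an unadjusted p under 0.05 (20.3% of all genes) and 4 calls with DESeq2 (8.3%). Its smallest p were those of Mgst1 (-0.59 ± 0.10, adjusted p = 0.0592), Prdx1 (-0.60 ± 0.15, 0.104) and Prdx3 (-0.47 ± 0.13, 0.116).

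In F2 testis Gpx1, Sod3, Cat and Prdx3 of the 15 peroxide and superoxide removers fell in some groups with exposed parents against offspring of control parents. The transferase Gstm1 fell with a dose 2 father and with both parents from dose 2, and Gstm2 and Gstk1 with both parents. Of the 44 genes, 0 passed with a dose 1 mother (0.816% of all 19241 genes), 3 with a dose 2 mother (1.70%), 2 with a dose 1 father (3.97%), 6 with a dose 2 father (5.33%) and 10 with both parents at dose 2 (4.59%). The 2 of 44 with a dose 1 father are a share near that of all genes. All of these were lower except Cth, which rose with both parents at dose 2. Lower calls made up 0.899%, 1.75%, 2.39% and 2.81% of all genes in the last 4 comparisons, and higher calls 1.78% with both parents. The median over the 44 genes was -0.05, -0.13, -0.12, -0.25 and -0.20 in the order above, beside medians of all genes between -0.01 and 0.01. Without both-parents A the last of these medians was -0.10. The 5 comparisons share the same 3 control-parents libraries, so their values are given side by side and are not independent of each other.

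Gpx1 (Entrez 14775), the main cytosolic glutathione peroxidase, fell in 4 of the 5 comparisons. It stood at 30.6, 27.3 and 28.9 CPM with control parents, 24.1, 26.5 and 23.8 CPM with a dose 1 mother and 17.5, 20.2 and 20.3 CPM with a dose 2 mother. A dose 1 father gave 22.5, 20.4 and 21.8 CPM, a dose 2 father 16.8, 17.4 and 20.2 CPM, and both parents at dose 2 gave 19.4, 18.2 and 22.8 CPM. None of the 15 libraries with an exposed parent reached the lowest control-parents library. The log2 changes were -0.58 ± 0.10 for the dose 2 mother (adjusted p = 0.00803), -0.43 ± 0.10 for the dose 1 father (0.0189), -0.68 ± 0.10 for the dose 2 father (0.00242) and -0.54 ± 0.10 for both parents (0.00585). With the dose 2 father the call held for each library left out. With the dose 1 father it held in 2 of 6 such fits, with the dose 2 mother in 5 and with both parents in 4.

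Sod3 (Entrez 20657), the extracellular superoxide dismutase, fell in the same 4 comparisons. Control parents gave 39.9, 31.9 and 46.2 CPM, with library B well below the other two. The exposed groups were tightly spaced, from 24.9 CPM (both parents, C) to 32.3 CPM (dose 2 mother, B), and only that library and control-parents B overlapped. The log2 changes were -0.43 ± 0.11 for the dose 2 mother (adjusted p = 0.0477), -0.51 ± 0.11 for the dose 1 father (0.0113), -0.55 ± 0.11 for the dose 2 father (0.0103) and -0.57 ± 0.11 for both parents (0.00788). With each library left out in turn these calls held in 1, 3, 2 and 4 of 6 fits. F1 libraries lay between 23.7 and 29.0 CPM in all 3 F1 groups, so the exposed F2 groups lay near the F1 range and the control-parents group above it.

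Catalase, Cat (Entrez 12359), which breaks down peroxide in peroxisomes, stood at 14.6, 13.5 and 15 CPM with control parents. It was 8.82, 10.1 and 8.03 CPM with a dose 2 mother (log2 -0.68 ± 0.13, adjusted p = 0.0167), 10.4, 9.92 and 9.04 CPM with a dose 2 father (-0.56 ± 0.13, 0.0271) and 10.9, 8.44 and 9.14 CPM with both parents at dose 2 (-0.61 ± 0.13, 0.0163). These 9 libraries all lay below the 3 control-parents libraries. The calls held in 3, 1 and 3 of 6 fits that left out a library. With a dose 1 mother Cat gave 11.8, 7.96 and 10.9 CPM and the smallest p of the 44 genes there (-0.50 ± 0.13, adjusted p = 0.0777), ahead of Sod3 (-0.39 ± 0.11, 0.0838) and Ephx1 (-0.44 ± 0.13, 0.104). That comparison had 6 genes at an unadjusted p under 0.05 (17.9% of all genes) and 3 calls with DESeq2 (3.74%).

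Prdx3 (Entrez 11757), the peroxiredoxin of mitochondria, gave 22.7, 20.6 and 21.8 CPM with control parents and fell to 16.6, 18.5 and 17.9 CPM with a dose 2 father (log2 -0.30 ± 0.08, adjusted p = 0.0399) and to 15.2, 17.1 and 17.3 CPM with both parents at dose 2 (-0.41 ± 0.08, 0.0101). The groups did not overlap, and the calls held in 1 and 5 of 6 fits that left out a library. Txn1 (Entrez 22166), the thioredoxin that recharges peroxiredoxins, gave 11.5, 13 and 11 CPM with control parents and 7.74, 8.15 and 8.99 CPM with both parents at dose 2, where it fell by 0.53 on the log2 scale (SE 0.14, adjusted p = 0.0378), a call that held in 1 of 6 such fits. Keap1 (Entrez 50868), the sensor that holds NRF2 back, passed with the dose 2 father, at 46.9, 50.2 and 51.3 CPM against 61.4, 54.2 and 70.8 CPM (-0.33 ± 0.09, adjusted p = 0.0347), in 2 of 6 such fits. With both parents at dose 2 Keap1 gave 58.5, 56.8 and 63.7 CPM, within the control-parents range.

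Gstm1 (Entrez 14862), a mu-class transferase of the cytosol, showed the largest fall among the genes that passed. Cbs had a lower value with a dose 2 mother without passing (log2 -1.17 ± 0.30, adjusted p = 0.0517). Gstm1 stood at 402, 352 and 353 CPM with control parents, and at 185, 187 and 189.7 CPM with both parents at dose 2. The 3 libraries of each group lay close together and far from those of the other. The change was -0.99 ± 0.16 on the log2 scale (adjusted p = 0.00408), and it passed in each of the 6 fits that left out a library (adjusted p 0.00371 to 0.0316). A dose 2 father gave 273, 255 and 221 CPM (-0.57 ± 0.16, adjusted p = 0.0483), a call that held in 1 of 6 such fits. The other exposed groups reached from 209.6 CPM (dose 2 mother, A) to 389 CPM (dose 1 mother, B), and the latter overlapped the controls. In F1 testis the same gene ranged from 216 to 294 CPM across control, dose 1 and dose 2.

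Its neighbour on the chromosome, Gstm2 (Entrez 14863), fell as well with both parents at dose 2, from 204, 207 and 186 CPM to 116, 119 and 126 CPM (log2 -0.74 ± 0.15, adjusted p = 0.0119). The RefSeq order of the cluster is Gstm5, Gstm7, Gstm6, Gstm3, Gstm2, Gstm1 and Gstm4. Gstm5 at its other end, the most abundant of the 44 genes in testis, did not pass in any exposure comparison. Of the 100-base stretches of the Gstm1 and Gstm2 transcripts, 7.73% and 0.622% occur in another gene, so reads may be split between relatives to that extent. Gstk1 (Entrez 76263), the kappa-class transferase of mitochondria and peroxisomes, gave 5.37, 6.20 and 6.09 CPM with control parents and 3.40, 3.27 and 3.96 CPM with both parents at dose 2 (-0.75 ± 0.16, adjusted p = 0.0145). Ephx1 (Entrez 13849), the microsomal epoxide hydrolase, gave 118, 118 and 117 CPM and 75.5, 73.0 and 75.0 CPM (-0.68 ± 0.13, adjusted p = 0.00900), again without overlap. The calls of Gstm2 and Gstk1 each held in 4 of 6 fits that left out a library, and that of Ephx1 in 5.

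Cth (Entrez 107869) was the exception. It stood at 1.11, 1.03 and 0.780 CPM with control parents, from 42, 42 and 31 counts, and at 4.22, 3.54 and 2.81 CPM with both parents at dose 2, from 175, 144 and 97 counts. The rise was 1.84 ± 0.48 on the log2 scale (adjusted p = 0.0406), and it held in 2 of 6 fits that left out a library. The dose 2 mother gave 2.15, 4.10 and 3.82 CPM and the dose 2 father 2.61, 1.97 and 2.23 CPM without passing. F1 controls gave 2.59, 1.24 and 2.80 CPM, so the control-parents libraries lay below all 3 of them.

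**Figure D2:**
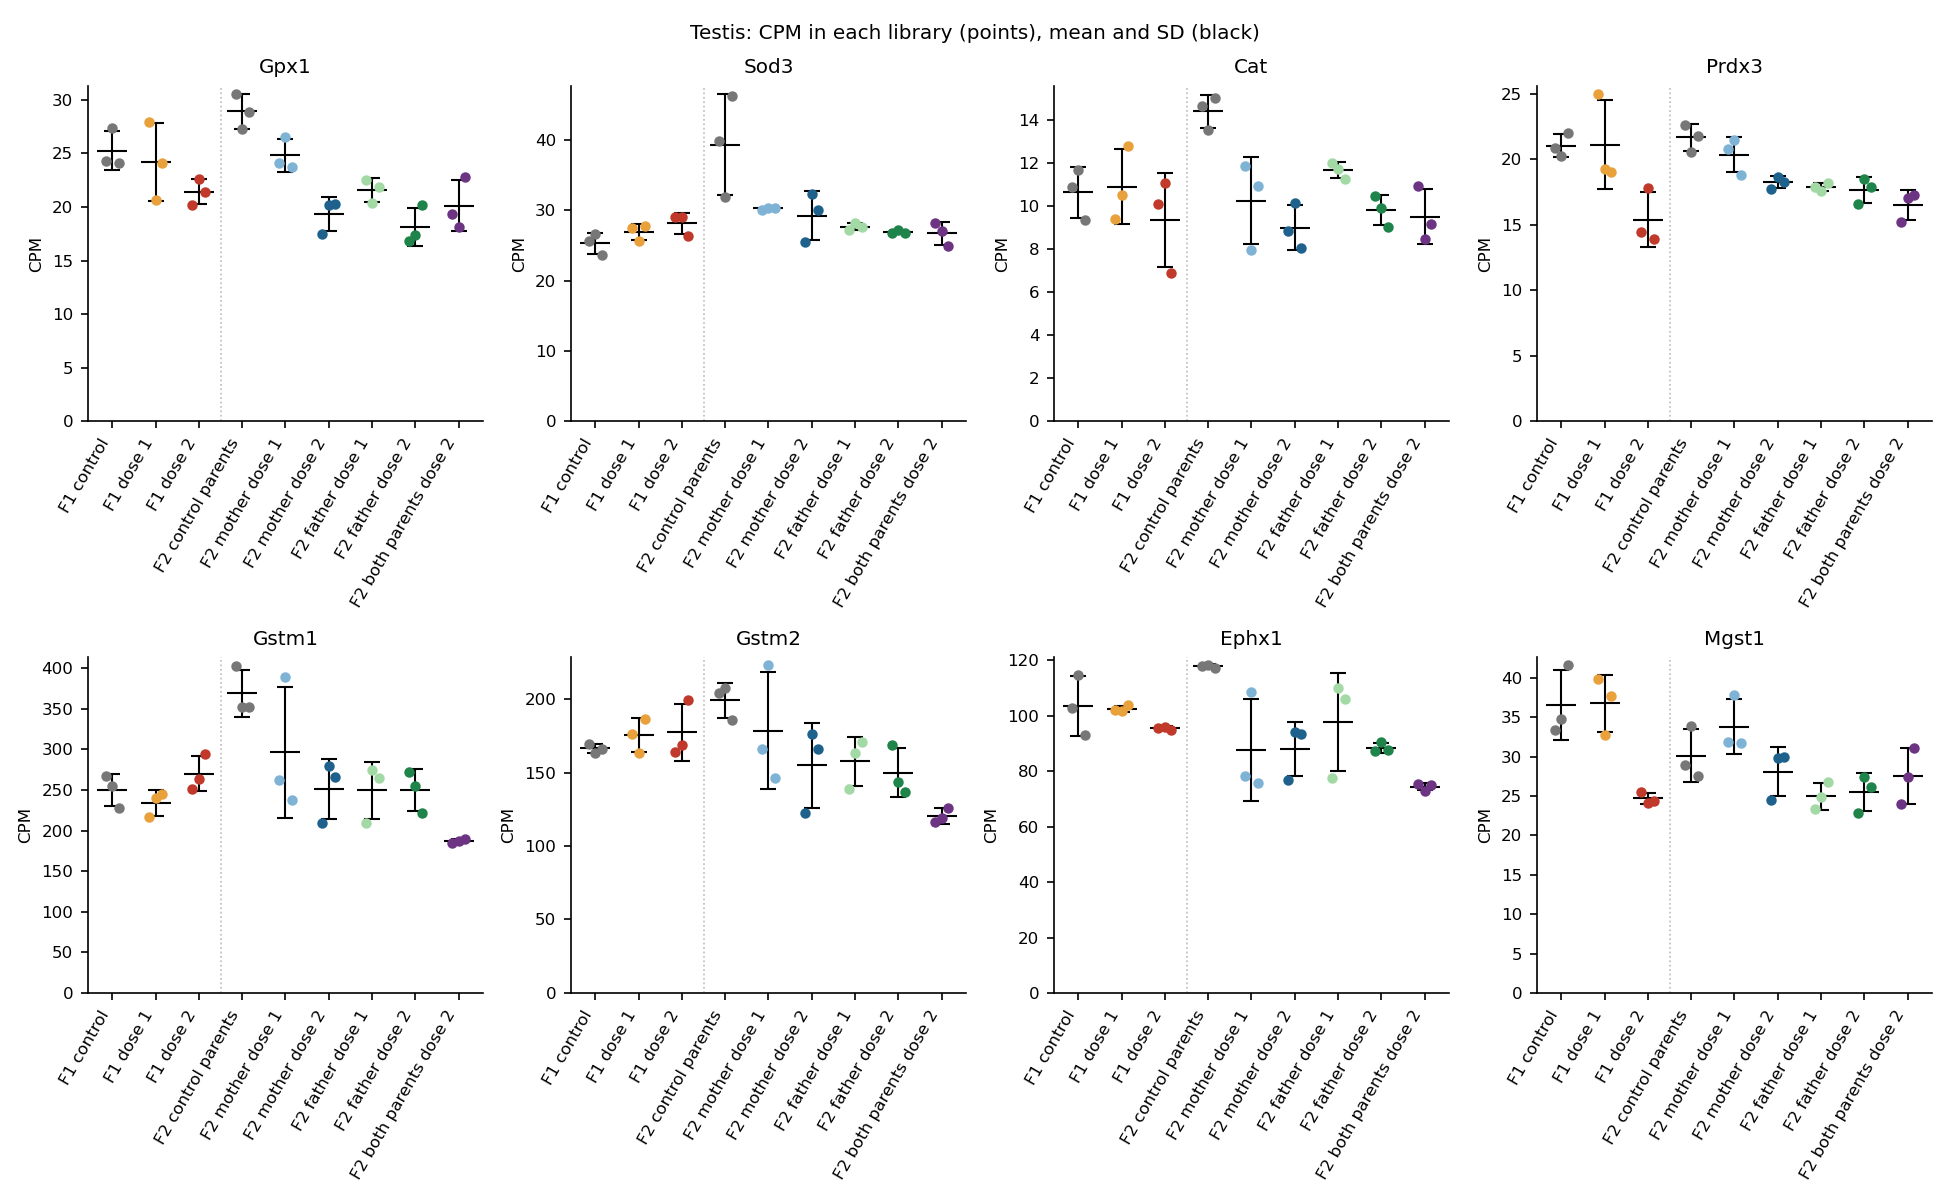
CPM in each testis library (points), with group mean and SD in black, for Gpx1, Sod3, Cat, Prdx3, Gstm1, Gstm2, Ephx1 and Mgst1 over the 3 F1 and 6 F2 groups, separated by the dotted line. F2 control parents stand high for the first 7 of these genes, and Gstm1 and Ephx1 are lowest with both parents at dose 2, while Mgst1 drops at F1 dose 2.

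How many genes passed depended on single control-parents libraries. The share of all genes was computed for the main fits and DESeq2 only, so whether it moved likewise in the other fits is not known. With both parents at dose 2 the count of 10 became 2 without control-parents A, 5 without control-parents C, 4 without both-parents B and 4 when only the 6 compared libraries were fitted, and it stayed between 8 and 12 under the other settings. With the dose 2 father the count of 6 became 1 without control-parents A or C or without father dose 2 A or B, and 10 with DESeq2 (11.3% of all genes). With the dose 2 mother the count of 3 went to 0 without control-parents A, 7 without B and 1 without C, to 1 without mother dose 2 C, 8 with DESeq2 (5.28% of all genes) and 5 with only the compared libraries. With the dose 1 father the count of 2 went to 0 without control-parents A or C and 5 without B, to 1 without father dose 1 B and 0 without father dose 1 C, and 4 with DESeq2 (6.66% of all genes) or only the compared libraries. With the dose 1 mother the count of 0 became 2 without control-parents B or mother dose 1 B. The direction of each change that had passed stayed the same in all of these fits.

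The dose 2 father and the dose 2 mother were also compared with each other. With edgeR 0 of 44 genes passed, beside 0.109% of all genes, as with DESeq2 (0.483%), and 1 gene had an unadjusted p under 0.05 (7.14%). The smallest p were those of Cbs (log2 0.68 ± 0.30, adjusted p = 0.652), the haem-degrading enzyme Hmox1 (-0.25 ± 0.13, 0.741) and the glutathione synthetase Gss (-0.79 ± 0.43, 0.752). Gss is an unsteady gene in testis, with libraries from 4.15 to 20.9 CPM.

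The reference itself moved between generations. A comparison chosen after the data were seen set testis of F2 control parents against testis of F1 controls, groups that differ in generation and perhaps in age or batch. In it 4 of 44 genes passed, a smaller share than the 14.5% of all genes (6.14% higher and 8.39% lower). Sod3 (log2 0.63 ± 0.10, adjusted p = 0.000973), Gstm1 (0.56 ± 0.14, 0.0124) and Prdx6 (0.22 ± 0.06, 0.0262), a peroxiredoxin that also has phospholipase activity, were higher in F2 control parents. Prdx1 was lower (-0.55 ± 0.13, 0.00948). The count became 1 without F1 control C or control-parents A and 7 with DESeq2 (18.6% of all genes) or only the compared libraries. Over the 9 testis groups, 17 of the 44 genes had their highest mean in F2 control parents, against 8 in F1 control and at most 6 elsewhere. Highest means were not counted over all genes, so whether 17 of 44 is unusual is not known.

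Markers of Leydig cells moved with these genes. Their 10 markers, led by steroid enzymes such as Cyp17a1 and Cyp11a1, summed to 1556 to 1649 CPM with control parents, 988 to 1043 CPM with both parents at dose 2, 909 to 1496 CPM in the other F2 groups and 937 to 1285 CPM in F1. Of the 10, 1, 4, 5, 4 and 6 passed as lower with the dose 1 mother, dose 2 mother, dose 1 father, dose 2 father and both parents, with medians of -0.35, -0.54, -0.62, -0.54 and -0.71 on the log2 scale. Macrophage markers summed to 118 to 123 CPM with control parents and 82.9 to 92.8 CPM with both parents, where 4 of 10 passed as lower. Of the 10 Sertoli cell markers 1 passed as lower there, with sums of 238 to 244 CPM against 248 to 301 CPM. No gene of these lists was at 0 in all 3 libraries of any testis group. The part of Leydig cells and macrophages in the falls of Gstm1, Gstm2, Ephx1, Gpx1, Sod3 and the others was not tested.

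**Figure D3:**
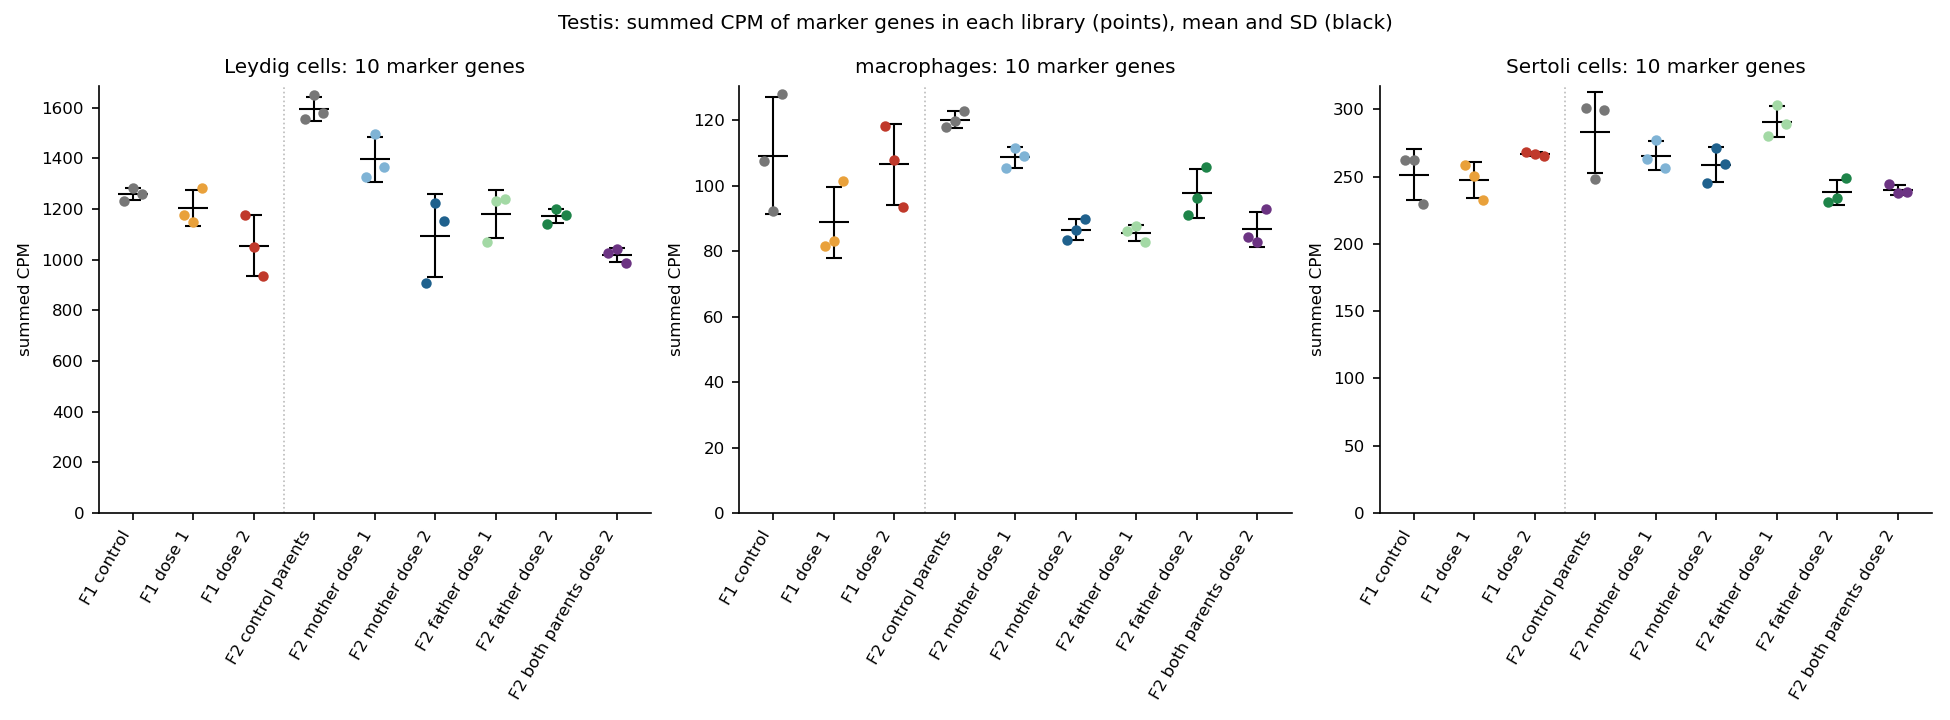
Summed CPM of 10 Leydig cell, 10 macrophage and 10 Sertoli cell marker genes in each testis library (points), with group mean and SD in black, over the 9 testis groups. The Leydig sum is highest with F2 control parents, at 1556 to 1649 CPM, and 988 to 1043 CPM with both parents at dose 2.

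In ovary, none of the 44 genes passed in any of the 9 exposure comparisons with edgeR. Replicates scattered more in ovary, with a chi-square per gene of 20.1 to 263 between libraries of a group, against 3.17 to 75.6 in testis. This limits what could pass, so 0 calls do not show that the genes were unchanged in ovary. Percentages in parentheses below are the shares of all genes by the same criterion. At F1 dose 1, 0 genes passed beside 0% of all genes, with 3 at an unadjusted p under 0.05 (5.27%) and 0 with DESeq2 (0.455%). The smallest p there were Sod2 (log2 0.64 ± 0.22, adjusted p = 0.726), the transferase of lipid aldehydes Gsta4 (-0.65 ± 0.23, 0.726) and Gstt1 (-0.68 ± 0.27, 0.726). At F1 dose 2, 0 genes passed beside 0% of all genes, with 12 at an unadjusted p under 0.05 (12%) and 0 with DESeq2 (1.99%), led by Gstm5 (-0.57 ± 0.19, adjusted p = 0.411), Gsta4 (-0.63 ± 0.23, 0.411) and Txn1 (-0.75 ± 0.28, 0.411). Dose 2 against dose 1 gave 0 beside 0%, with 1 at an unadjusted p under 0.05 (4.71%) and 0 with DESeq2 (1.56%), led by Prdx3 (-0.54 ± 0.18, adjusted p = 0.697), Sod2 (-0.49 ± 0.22) and Cbs (1.06 ± 0.56). Cbs stood at 126 CPM in dose 2 A, the library with 1498 CPM of oviduct markers, at 38.5 and 23.9 CPM in B and C, and at 25.9 to 34.2 CPM at dose 1.

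The size of the lower values in F1 ovary depended on 1 control library, and at dose 1 their direction did as well. Of the 44 genes, 35 had a log2 value below 0 at dose 2, with a median of -0.42 beside 0.02 over all genes. Txn1 is an example: controls A, B and C gave 262, 117 and 138 CPM and dose 2 gave 88.6, 119.7 and 98.4 CPM. Without control A the median at dose 2 was -0.07, with 31 genes below 0. At dose 1 the median of -0.20 became 0.06 without that library, and the genes below 0 went from 30 to 16 of 44.

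F2 ovary with both parents at dose 2 lay on the other side. There 36 of the 44 genes had a log2 value above 0, with a median of 0.26 beside 0.01 over all genes. With edgeR 0 passed, beside 0.688% of all genes, while 14 had an unadjusted p under 0.05 (24.5%) and DESeq2 called 8 (12.6%). The smallest p were the catalytic subunit of glutathione synthesis Gclc (-0.61 ± 0.14, adjusted p = 0.0524), Mgst2, a microsomal transferase that also makes leukotriene C4 (1.33 ± 0.30, 0.0524), and Txnrd3 (-0.30 ± 0.08, 0.0572). Gclc stood at 118, 129 and 161 CPM with control parents and 92.4, 95.4 and 79.6 CPM with both parents, and Mgst2 at 10.3, 9.84 and 9.01 CPM and 16, 27.8 and 29.5 CPM, both without overlap. The 10 Leydig markers, which theca and luteal cells share in part, summed to 17096 to 17997 CPM with both parents and 12495 to 15737 CPM with control parents, with 5 of 10 above 0 and none past the threshold. Their part in these values was not tested. Without both-parents library B, 4 genes passed, and the share of all genes in that fit was not computed. Without library C the median was 0.15.

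The other F2 ovary comparisons gave these counts with edgeR. With a dose 1 mother 0 passed beside 0% of all genes (9, beside 9.2%, at an unadjusted p under 0.05, 2 with DESeq2 beside 0.722%, 1 without mother dose 1 A), led by Sod2 (0.90 ± 0.23, adjusted p = 0.307), Txnrd3 (-0.30 ± 0.08, 0.307) and Mgst2 (0.92 ± 0.30, 0.370). With a dose 2 mother 0 passed beside 0% (3, beside 5.83%, at an unadjusted p under 0.05, 0 with DESeq2 beside 0.0802%), led by Cbs (-0.88 ± 0.24, 0.731), Txnrd3 (-0.25 ± 0.08, 0.731) and Gpx3 (1.00 ± 0.32, 0.731). With a dose 1 father 0 passed beside 0% (11, beside 9.63%, at an unadjusted p under 0.05, 1 with DESeq2 beside 0.495%), led by Gpx3 (1.17 ± 0.32, 0.365), Mgst2 (1.03 ± 0.30, 0.365) and Cat (0.41 ± 0.12, 0.365).

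Gpx3 was the widest ranging of these genes in ovary, from 258 to 1993 CPM over the 27 libraries, and F2 control parents held 397, 281 and 444 CPM. Corpus luteum markers summed to 10439 to 20492 CPM with a dose 1 father and 7995 to 10726 CPM with control parents, with 8 of 8 above 0 and none past the threshold, and their part in the Gpx3 value was not tested. With a dose 2 father 0 passed beside 0.00573% of all genes (5, beside 15.8%, at an unadjusted p under 0.05, 0 with DESeq2 beside 2.63%), led by Gclc (-0.44 ± 0.14, adjusted p = 0.192), Gpx7 (0.42 ± 0.14, 0.206) and Gstp1 (0.62 ± 0.21, 0.212). Dose 2 father against dose 2 mother gave 0 beside 0.00573% (10, beside 20.4%, at an unadjusted p under 0.05, 5 with DESeq2 beside 6.39%, 2 without father dose 2 A), led by Prdx4 (0.48 ± 0.13, 0.0996), Mgst3 (0.73 ± 0.21, 0.108) and Txnrd3 (0.26 ± 0.08, 0.120). Of the stretches of Gstp1, the pi-class transferase, 52.8% occur in Gstp2, so its counts are uncertain.

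**Figure D4:**
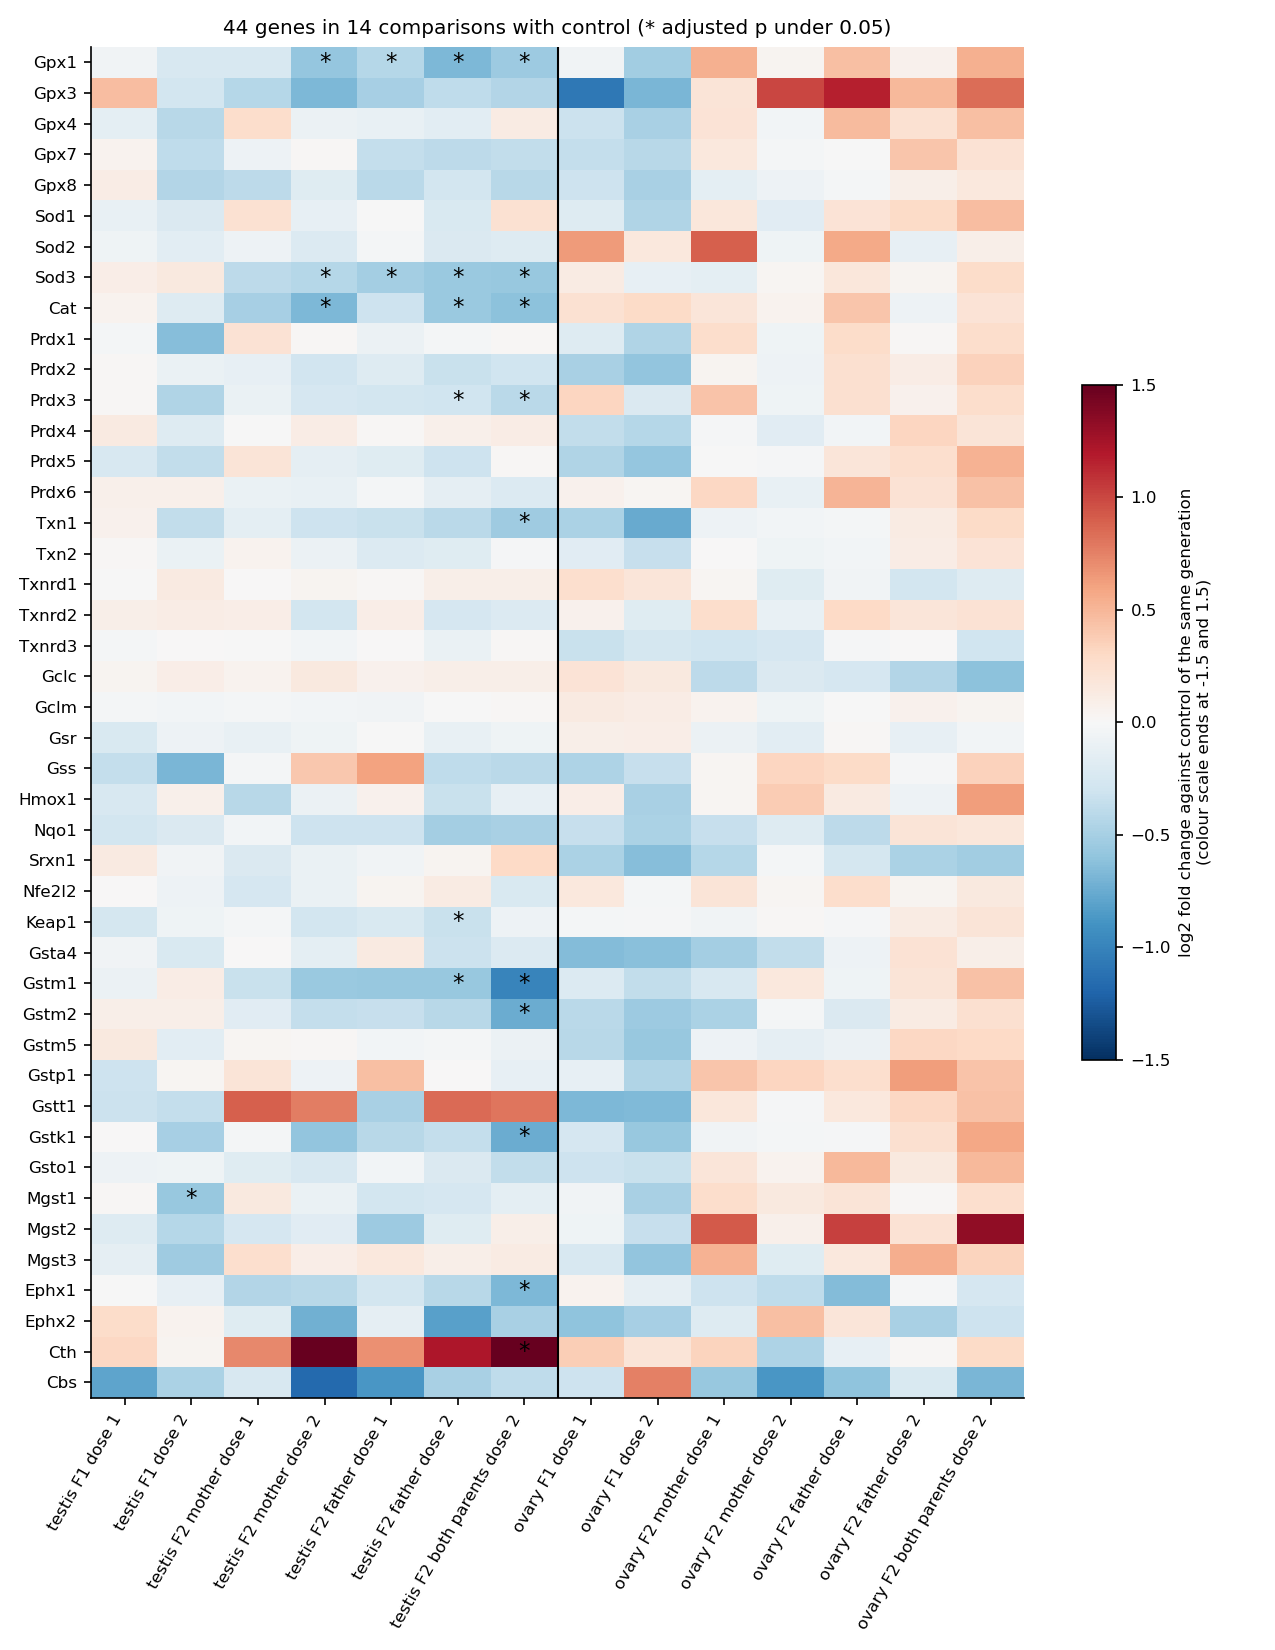
Log2 fold change against the control of the same generation (colour, with the scale ending at -1.5 and 1.5) for the 44 genes (rows) in 14 comparisons (columns, testis left and ovary right of the line), with asterisks at an adjusted p under 0.05. All asterisks are in testis, from 1 at F1 dose 2 to 10 with both parents at dose 2, and the ovary column for both parents holds 36 genes above 0.

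The effect of both parents at dose 2 differed between testis and ovary for 11 of the 44 genes when the difference itself was tested over the 36 F2 libraries, beside 4.59% of the 20661 genes tested. For 10 the change was more negative in testis (2.92% of all genes) and for 1 more positive (1.67%). The largest were Gstm1 (testis minus ovary -1.45 ± 0.27 on the log2 scale, adjusted p = 0.00398) and Gstk1 (-1.34 ± 0.22, 0.00195). Gpx1 gave -1.08 ± 0.25 (0.0129), with ovary libraries at 192, 177 and 169 CPM for control parents and 216, 233 and 327 CPM for both parents. The others were Gstm2, Gsto1, Sod3, Cat, Txn1, Prdx3 and Prdx2, between -1.0 and -0.66. Gclc was the exception at 0.69 ± 0.16 (adjusted p = 0.0145), with testis libraries at 33.5, 34.8 and 30.2 CPM for control parents and 37.2, 34.0 and 34.9 CPM for both parents.

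These differences leaned on some libraries, too. The count of 11 became 4 without ovary both-parents C, 6 without ovary control-parents C and 7 without testis control-parents C, and stayed between 8 and 15 otherwise. Ovary both-parents C held the highest level of 8 of the 44 genes among ovary libraries, a count not made over all genes. It also held the highest sum of macrophage markers, 1011 CPM, against 319 to 763 CPM with control parents. The part of these cells in the ovary values was not tested. The effect of F1 dose 2 was compared between the tissues in the same way. There 0 of 44 genes passed with edgeR, beside 0.0147% of all genes, and as many with DESeq2 (1.81%), with 2 at an unadjusted p under 0.05 (10.3%). The smallest p were Gstm2 (0.64 ± 0.23, adjusted p = 0.322), Gstm1 (0.49 ± 0.23, 0.473) and Srxn1 (0.59 ± 0.32, 0.555), the enzyme that repairs overoxidised peroxiredoxins.

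**Figure D5:**
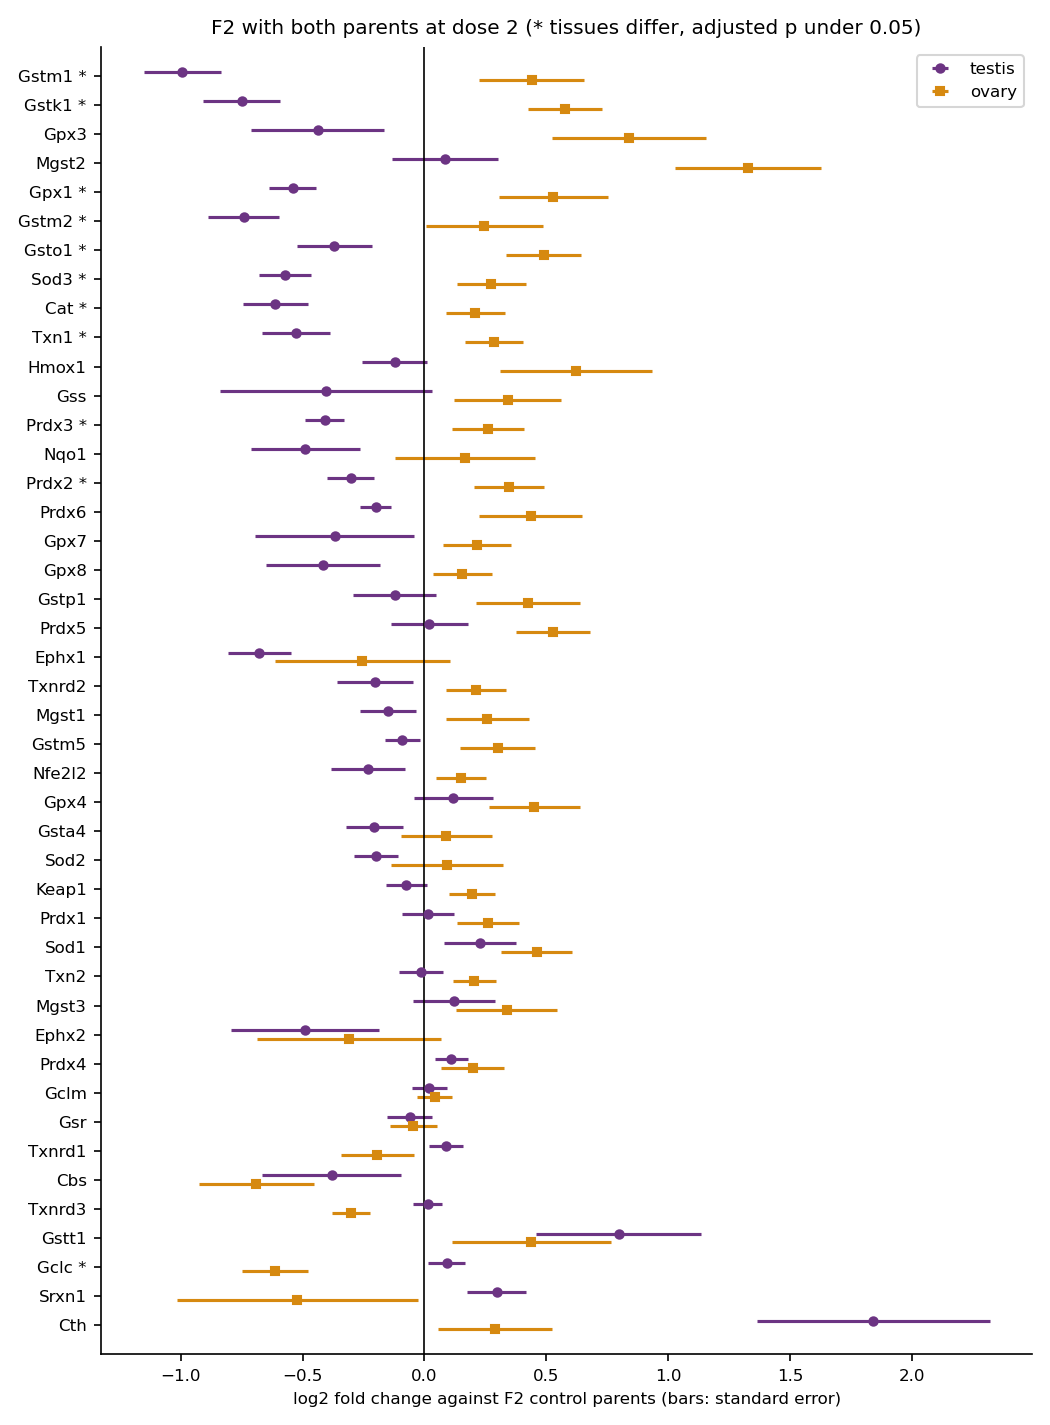
Log2 fold change of F2 mice with both parents at dose 2 against F2 control parents (horizontal axis, bars are standard errors) in testis (circles) and ovary (squares) for each of the 44 genes, ordered by the difference between the tissues, with asterisks where the tissues differ. For Gstm1 testis lies at -0.99 and ovary to the right of zero, and Gclc at the lower end shows the opposite order.

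Across all exposure groups several members stayed nearly level. In testis the ratio of the highest to the lowest of 9 group means was 1.11 for Gclc, 1.12 for Gclm and Txnrd3, 1.14 for Txnrd1, the cytosolic thioredoxin reductase, 1.16 for Prdx6 and 1.20 for Sod2. Gclc libraries ran from 30.2 to 37.7 CPM and Txnrd3 libraries from 475 to 598 CPM. The widest testis ratios were Cth 3.62, Gstt1 2.75, Cbs 2.25, Gss 2.17 and Gpx3 2.07. Gstm1 followed at 1.97.

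Of the sensor Keap1 and the factor Nfe2l2, only Keap1 passed against control, in testis with a dose 2 father. Nfe2l2 libraries ran from 13 to 25.5 CPM in testis and from 126 to 186 CPM in ovary. Among its familiar targets, Nqo1, a quinone reductase, ran from 1.38 to 2.92 CPM in testis and from 4.27 to 13.7 CPM in ovary, and Hmox1 from 8.27 to 13.7 CPM and from 38.0 to 131 CPM. Srxn1 ran from 32.2 to 62.8 CPM and from 24.3 to 124 CPM. None of Nfe2l2, Nqo1, Hmox1, Srxn1, Gclm and Txnrd1 passed against control in either tissue. These genes do not stand for all NRF2 targets. Gstm1, Ephx1, Cat and Mgst1, which passed as lower in testis as given above, were not counted among them. Other NRF2 pathway genes and NADPH suppliers also passed as lower in some F2 testis groups, as given below.

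In ovary the steadiest genes were Gsr and Gclm, with ratios of 1.12 and 1.15, then Keap1 at 1.18 and Nfe2l2 at 1.22. The widest were Gpx3 at 3.73, Ephx2 at 2.83, Mgst2 at 2.51, Cbs at 2.44 and Gstk1 at 2.26. Ephx2 ranged from 342 to 2241 CPM over the libraries, and its lowest and highest group means were 640.0 and 1808 CPM. Of the abundant peroxiredoxins, Prdx1 ranged from 466 to 1073 CPM and Prdx2, the form of red cells and many other tissues, from 285 to 783 CPM, each highest in F1 control A.

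A few other genes of the same pathways passed in testis. Of 36 tested glutathione and thioredoxin genes outside the 44, 1 passed as lower at F1 dose 2, the glutaredoxin Glrx3 (log2 -0.36 ± 0.07, adjusted p = 0.0355). Of all genes 1.64% passed as lower in that comparison. With both parents at dose 2, 1 was higher and 2 were lower of those 36, beside 1.78% and 2.81% of all genes. Of 26 other NRF2 pathway genes and NADPH suppliers, 4 were lower. The smallest p there were Slc3a2, the heavy chain of the cystine transporter (-0.49 ± 0.06, adjusted p = 0.000476), the transketolase Tkt of the pentose phosphate pathway (-0.66 ± 0.12, 0.00806) and Msrb1, which repairs oxidised methionine (-0.68 ± 0.13, 0.00824).

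The counts for the other parents ran as follows. Of all genes 2.39% passed as lower with a dose 2 father, 1.75% with a dose 1 father and 0.899% with a dose 2 mother. In either direction these shares were 5.33%, 3.97% and 1.70%, and 0.816% with a dose 1 mother. With a dose 2 father 2 of the 36 were higher and 2 lower, and 6 of the 26 were lower, led by Slc3a2 (-0.43 ± 0.06, adjusted p = 0.00242), Msrb1 (-0.82 ± 0.13, 0.00359) and the ferritin heavy chain Fth1 (-0.42 ± 0.08, 0.00996). With a dose 1 father 3 of the 36 and 1 of the 26 were lower, led by Msrb1 (-0.87 ± 0.13, 0.0009999), Fth1 (-0.33 ± 0.08, 0.0260) and Slc7a11, the light chain of the cystine transporter (-0.92 ± 0.22, 0.0292). With a dose 2 mother Slc3a2 (-0.43 ± 0.06, 0.00256) and Idh1, a source of NADPH in the cytosol (-0.46 ± 0.10, 0.0215), were lower and the peroxidase Gpx6 (0.32 ± 0.08, 0.0377) higher, and with a dose 1 mother Msrb1 alone passed (-0.62 ± 0.13, 0.0315). In ovary 0 of 34 and 0 of 26 passed in any exposure comparison, beside at most 0.688% of all genes.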

How the data were processed

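RNA of testis and ovary was made into stranded libraries with the Illumina Stranded mRNA Prep Ligation kit and read at 100 nt, per the labels. The authors deposited 1 table of raw counts per gene and tissue, whole numbers that were not normalized, with 26264 rows, of which 26131 carry an Entrez ID. Per the submitters' processing notes the build was mm39 and the tools named include featureCounts 2.0.3, TopHat2 2.1.1 and Bowtie2 2.4.5. Also named are DESeq2 1.32.0, SAMtools 1.13, FastQC 1.19 and bcl2fastq 2.20. For the annotation and the strand setting, nothing is given in the sources used here. If strand was not used, reads of overlapping antisense genes would be included.

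From the counts, edgeR 4.0.16 (R 4.3.3) gave TMM factors and quasi-likelihood tests over all genes that passed its expression filter (minimum count 10), with Benjamini-Hochberg adjustment and a threshold of 0.05. Each tissue's 9 F1 libraries and 18 F2 libraries were fitted separately, and the unexposed tissues in 1 fit of 12 libraries. Effects were compared between tissues by an interaction term. Alternatives were RLE factors, no filter, a block on the library letter, DESeq2 1.42.0, only the libraries compared, and each library left out (96 fits). Of these, only DESeq2 has a share of all genes past the threshold to set beside its counts. The tests were tested on simulated counts. No 2 replicates differed by as little as sampling noise (lowest chi-square per gene 3.17).

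The library letters have no stated meaning. Libraries of the same letter deviated together, with every correlation above 0.1, only for ovary F1 dose 1 against control (0.188, 0.201 and 0.35), where the block gave 0 calls as without it.

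CPM are TMM-scaled within a tissue, except where testis and ovary are compared, and CPM per kb divides by the longest coding transcript. Levels of 37 genes rest on transcripts with no 100-base stretch shared with another gene. Named genes are all members past the threshold in an exposure comparison, up to 8 with the largest tissue difference each way (mean of both generations, passing in both), the 3 with the smallest p where none passed, and up to 3 other pathway genes per comparison. The members and lists were chosen with earlier results of these data known. Promoter windows came from RefSeq on GRCm38.p6, and 8 genes had none in that table.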

Additional observations from a re-analysis of the deposited data

Results flagged for a closer look

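The effect of having both parents from dose 2 differed between testis and ovary for 11 genes in the interaction test of edgeR. Testis minus ovary, on the log2 scale, the differences were -1.45 for Gstm1, -1.34 for Gstk1, -1.08 for Gpx1, -1.0 for Gstm2, -0.87 for Gsto1, -0.86 for Sod3, -0.84 for Cat, -0.83 for Txn1, -0.68 for Prdx3, -0.66 for Prdx2 and 0.69 for Gclc. Gstm1, Gstk1 and Cat passed in each of the 12 fits that left out a library, whereas Gstm2 passed in 4 and Prdx2 in 6 of them.

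With a dose 1 father, 4 genes had testis libraries all below and ovary libraries all above those of control parents. Of the 16084 genes tested in both tissues, 0.945% showed this pattern and 1.65% an opposite move in either direction. In the other 4 groups examined, F1 dose 1, both mothers and the dose 2 father, 0 of the 44 genes did so. The share of all genes with this pattern there ran from 0.355% (F1 dose 1) to 1.72% (dose 2 father). For an opposite move in either direction it ran from 0.622% to 4.31% in the same 2 groups. With shares this low, 0 of 44 genes does not set these groups apart from the dose 1 father. For the 4 genes with the dose 1 father, the log2 changes were -0.43 in testis and 0.45 in ovary for Gpx1. They were -0.31 and 0.41 for Cat, -0.28 and 0.24 for Prdx3, and -0.55 and 1.03 for Mgst2. The difference between the tissues was not tested for these 4.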

How the results depend on the processing

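No change that had passed reversed under any alternative. Changes that had not passed were not checked for a reversal. Of the values of single genes outside the tissue comparisons, 344 stayed on the same side of the threshold and 118 were no longer past it. For the tissue comparisons these were 793 and 43. Counts of members past the threshold moved by over 1.5 times as follows. Outside the main fits and DESeq2 the share of all genes was not computed, so these counts stand without it. DESeq2 gave 6 for testis F1 dose 2 (1 in the text), 4 for dose 2 against dose 1 (0), and in F2 testis 3 for the dose 1 mother (0), 8 for the dose 2 mother (3), 4 for the dose 1 father (2), 10 for the dose 2 father (6) and 7 for control parents against F1 control (4). In F2 ovary it gave 2 for the dose 1 mother, 1 for the dose 1 father, 8 for both parents and 5 for dose 2 father against mother, all 0 in the text. Fitting only the libraries compared gave 5 for testis F1 dose 2, 5 for the dose 2 mother, 4 for the dose 1 father, 4 for both parents (10) and 7 for control parents against F1 control. Without the filter, testis F1 dose 2 against dose 1 had 1, and with RLE factors ovary both parents had 1. Leaving out 1 library gave 0 for testis F1 dose 2, 0 to 2 for the dose 1 mother, 0 to 7 for the dose 2 mother, 0 to 5 for the dose 1 father, 1 to 8 for the dose 2 father, 2 to 11 for both parents and 1 to 5 for control parents against F1 control. In ovary it gave 0 to 1 for the dose 1 mother, 0 to 4 for both parents and 0 to 2 for dose 2 father against mother, and for the tissue difference of the both-parents effect 4 to 14. The cause of these moves was not tested, beyond fewer libraries in the fit. The replicate block on the letter gave 1 for testis F1 dose 2, 3 for the dose 2 mother, 3 for the dose 1 father, 8 for the dose 2 father and 10 for both parents, and 10 for the tissue difference. Genes near 1 CPM in testis, such as Cth and Gstt1, rest on few counts (Cth on 31 to 42 with control parents), which limits their precision.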
